A study of Homo sapiens with 7 samples.

Results

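The zinc-finger gene clusters of chromosome 19 were taken as 5 spans of hg19 that lie where clusters of KRAB zinc-finger genes are known. Span 1 ran from 19.9 to 24.5 Mb, span 2 from 36.7 to 38.4 Mb, span 3 from 44.3 to 45.0 Mb, span 4 from 52.3 to 54.0 Mb and span 5 from 56.5 to 58.9 Mb. A peak was a member when its start lay in a span. The rule used position alone, and 161 of the 47959 peaks in 6 lists were members, of 5660 peaks on chromosome 19. They comprised 22 peaks of the NuMA C-terminal list, 45 of the NuMA N-terminal list, 31 and 32 of the wild-type histone H1 lists, and 25 and 6 of the NuMA-depleted H1 lists.

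The lists came from CUT&Tag, in which an antibody tethers a transposase that tags the DNA around its target, in the established human cell line HCT116, from a colon cancer. For NuMA there was 1 library with a C-terminal antibody and 1 with an N-terminal antibody, both from cells of the wild type genotype. Histone H1 was profiled in 2 libraries of wild-type cells, titled NC, and 2 libraries of the NuMA depletion genotype, titled AID. The labels gave no agent, time or clone for the depletion, so differences of clone or treatment between the H1 groups cannot be told apart from depletion. They also did not say whether replicates were separate cultures, so p-values measure the spread between libraries, and that spread can be technical. A library made with immunoglobulin G was not analysed here, so no background peaks of it stand beside the counts. Read totals were not given. A depth recovered from the peak statistics (the list's lowest background over its shortest peak) was 99.9% of wild-type replicate 1 in wild-type replicate 2 and 58.6% and 58.5% of it in the depleted replicates. It was 30.0% in the C-terminal and 49.7% in the N-terminal library.

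KRAB zinc-finger genes arose largely by tandem duplication, and many of their proteins bind transposable elements and recruit the corepressor TRIM28 and repressive histone methylation. The clusters themselves are known to carry such heterochromatin marks over their gene bodies in many cell types. Histone H1, the linker histone, sits on the nucleosome where DNA enters and leaves it and favours compact chromatin. NuMA is a large nuclear structural protein that also organises the poles of the mitotic spindle.

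Zinc-finger genes form a large share of the chromosome. In RefSeq's annotation of GRCh38.p14, 264 of 1403 named protein-coding genes of chromosome 19 (18.8%) had a zinc-finger symbol. Of these, 179 stood in 10 runs of at least 8 neighbouring genes with such a symbol. Runs were counted by symbol, so a zinc-finger gene under another symbol would break a run and not be counted. The longest run went from ZNF101 to ZNF681 with 35 genes, followed by the runs from ZNF565 to ZNF573 with 29, ZNF627 to ZNF791 with 24 and ZNF283 to ZNF180 with 20. Runs from ZNF766 to ZNF816 with 18 genes and from ZNF530 to ZNF256 with 16 were also found. Because the peaks are on hg19 and the annotation is not, no peak was assigned to a gene. The rule names 5 spans and does not hold every run of zinc-finger genes. The run from ZNF627 to ZNF791 and the run from ZNF699 to ZNF846, with 11 genes, lie on the short arm outside the spans. Genes of that kind therefore also lie in the rest of the chromosome that serves for comparison.

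NuMA peaks were sparse in the clusters. The C-terminal list had 1.98 peaks per Mb there (95% exact Poisson interval 1.24 to 3.00) against 49.4 (47.4 to 51.5) in the rest of chromosome 19. The N-terminal list had 4.05 (2.96 to 5.42) against 65.0 (62.6 to 67.4). The density in the rest was therefore 24.9-fold higher with the C-terminal antibody (interval 16.4 to 39.9). It was 16.03-fold higher with the N-terminal antibody (11.9 to 22). The clusters made up 11.1 Mb, which was 19.9% of the length compared, and held 0.986% of the chromosome's C-terminal and 1.53% of its N-terminal peaks. The rest of the chromosome left out a stretch of 3.51 Mb around the centromere in which no list had a peak. This stretch ran from 24.2 to 27.7 Mb, so its start lay in span 1, which kept its full length. These intervals cover counting error only, since each antibody had 1 library.

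Histone H1 peaks were not sparse there. The wild-type libraries had 2.79 and 2.88 H1 peaks per Mb in the clusters against 2.77 and 3.47 in the rest of the chromosome. The depleted libraries had 2.25 and 0.541 against 1.59 and 0.783. The clusters thus held 20%, 17.1%, 26.0% and 14.6% of the chromosome's H1 peaks in wild-type replicates 1 and 2 and depleted replicates 1 and 2, around their 19.9% share of the length. In the same order of libraries the log2 ratio of cluster to rest density was 0.01, -0.27, 0.50 and -0.53. Its mean over both genotypes was -0.07 ± 0.44 (SD, n = 4). The exact two-sided sign-flip permutation test against 0 gave p = 0.75. With 4 libraries its smallest p is 0.125, so it could not have called a difference at 0.05. Against these libraries the log2 ratio of the NuMA libraries, -4.64 and -4.00, was lower by 4.25 on average. Both NuMA values lay below all 4 H1 values (exact two-sided permutation test, p = 0.0667, the smallest that 2 against 4 allows). Antibody, library and depth all differ between NuMA and H1 lists. Genotype does too, since both NuMA libraries were wild type and 2 of the 4 H1 libraries were depleted. The parts of these in the difference cannot be told apart. Without span 1 the H1 peaks were denser in the clusters in all 4 libraries, by 0.60 on the log2 scale (p = 0.125 by the exact sign-flip test, the smallest that 4 libraries allow).

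**Figure D1:**
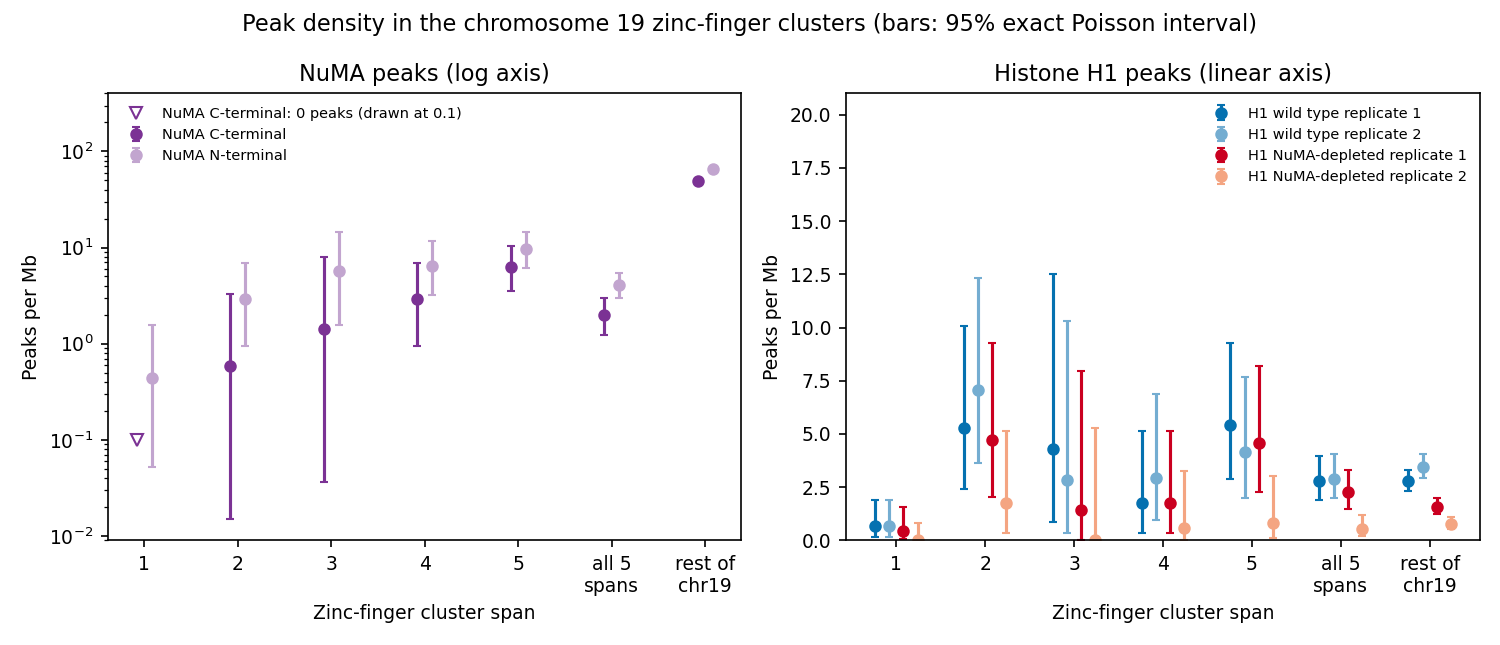
Peaks per Mb in each of the 5 zinc-finger spans, in all of them and in the rest of chromosome 19, for the NuMA lists (left, log axis) and the H1 lists (right, linear axis), with 95% exact Poisson intervals as bars; the open triangle marks 0 C-terminal peaks in span 1. NuMA densities of 1.98 and 4.05 over all spans lie far under the 49.4 and 65.0 of the rest, whereas the H1 intervals of the clusters and the rest overlap in each of the 4 libraries.

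The same contrast appeared in fixed windows of 1 Mb. In the 7 windows wholly inside the spans, the C-terminal list had 0 to 3 peaks with a median of 0, and the N-terminal list 0 to 8 with a median of 1. In the 41 windows wholly outside, the medians were 47 and 62 peaks, and the highest windows had 183 and 229. The ranges overlapped, since 7 of the 41 outside windows had no more C-terminal peaks than the fullest cluster window, and 7 had no more N-terminal peaks. Low NuMA density was therefore not particular to the clusters. H1 windows ran from 0 to 4 peaks inside and 0 to 7 outside in the wild-type libraries, and most outside windows lay within the range of the inside ones (35 and 28 of 41).

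**Figure D2:**
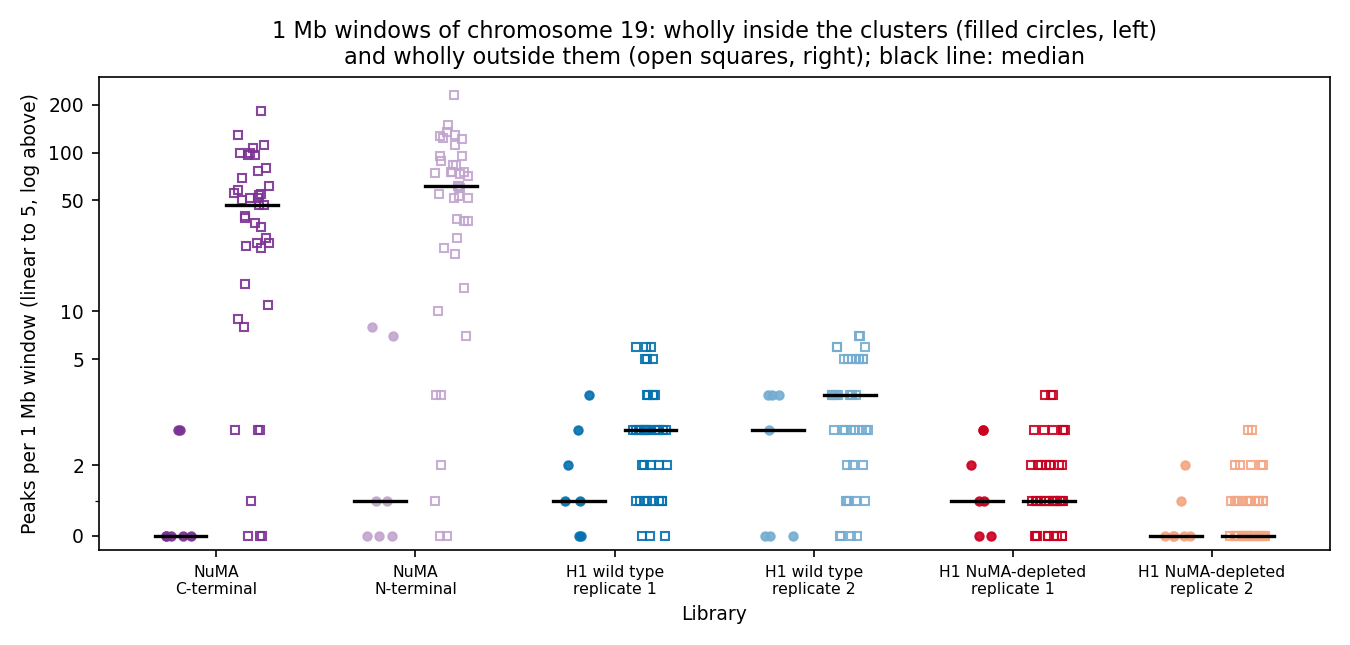
Peaks in each 1 Mb window of chromosome 19 for the 6 lists, with windows wholly inside the zinc-finger spans as filled circles and windows wholly outside as open squares; the axis is linear to 5 and logarithmic above, and the black line is the median. The NuMA medians are 0 and 1 inside against 47 and 62 outside, with 7 outside windows as low as the cluster windows in each list.

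The spans differed in their NuMA content. In the C-terminal list, span 1 had 0 peaks, spans 2 and 3 had 1 each, span 4 had 5 and span 5 had 15. The N-terminal list had 2, 5, 4, 11 and 23 in the same order. Per Mb, both lists gave the same order of spans, from 6.25 and 9.58 in span 5 through 2.94 and 6.47 in span 4, 1.43 and 5.71 in span 3 and 0.588 and 2.94 in span 2 to span 1 at 0 and 0.435. Neighbours in this order did not differ beyond their counting intervals. The 0 of the C-terminal list in span 1 allows up to 0.652 peaks per Mb (3 peaks over the 4.6 Mb), and the two-sided exact Poisson interval drawn for the densities ends at 0.802. The 2 N-terminal peaks of span 1 were at chr19:21203556-21204132 and chr19:24216336-24216969, with folds of 7.28 and 7.71. The fold here and below is the authors' own value for the peak at its summit. It was read as fragments plus 1 over local background plus 1, so at a low background it is under the plain ratio.

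Many NuMA peaks of span 5 lay at its distal edge, toward the end of the chromosome. This was looked at after the values were seen. The last 0.2 Mb of the span, from 58.7 to 58.9 Mb, held 7 of the 15 C-terminal and 12 of the 23 N-terminal peaks, which is 35.0 and 60.0 per Mb. The 2.2 Mb before it had 3.64 and 5 per Mb, and the 0.194 Mb beyond it up to the last peak had 149 and 144. Across all spans, 7 C-terminal and 13 N-terminal peaks started within 0.1 Mb inside an edge, and 29 and 33 within 0.1 Mb outside. Without span 5, the log2 ratio of cluster to rest density was -5.94 with the C-terminal and -4.68 with the N-terminal antibody, so NuMA peaks were sparser still over the other 4 spans.

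H1 peaks followed another order. Span 2 had 9 and 12 wild-type and 8 and 3 depleted peaks, and span 5 had 13 and 10 against 11 and 2. Span 1, the longest, had 3 and 3 against 2 and 0. Span 3 had 3 and 2 against 1 and 0, and span 4 had 3 and 5 against 3 and 1. By density, span 2 was first in 3 of the 4 H1 lists and second in wild-type replicate 1, with 5.29, 7.06, 4.71 and 1.76 peaks per Mb. Span 1 was last in 3 of the 4 lists and tied for last with span 3 in depleted replicate 2, at 0.652, 0.652, 0.435 and 0. Span 2, at or near the top for H1, was next to last for NuMA. However, the counting intervals of spans 2 and 5 overlapped in all 4 H1 lists, and those of spans 2 and 3 in both NuMA lists. Span 5 was first for NuMA and first or second for H1.

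Most C-terminal NuMA peaks of the clusters had an N-terminal peak, and fewer N-terminal ones had a C-terminal peak. Of the 22 C-terminal peaks, 19 overlapped an N-terminal peak by at least 1 bp (86.4%, exact binomial 95% interval 65.1 to 97.1), against 82.5% in the rest of the chromosome and 73.0% over all chromosomes. Of the 45 N-terminal peaks, 19 overlapped a C-terminal peak (42.2%, 27.7 to 57.8), against 60.6% in the rest and 51.4% over all chromosomes. The second interval lies just under the share in the rest of the chromosome and holds the share over all chromosomes. The C-terminal agreement therefore resembled the background. The N-terminal share was below that of the rest, but its interval covers counting error over peaks only, with 1 library each. It was 50% with NuMA lists of equal length and 56.4% with spans widened by 0.1 Mb. No difference of the clusters in agreement is drawn from it. Merged, the members formed 48 NuMA regions, of which 19 were called with both antibodies, 3 with the C-terminal one alone and 26 with the N-terminal one alone. Regions with both antibodies numbered 0, 1, 1, 5 and 12 in spans 1 to 5.

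The strongest of the regions called with both antibodies, ranked by the lower of the 2 folds, was chr19:57901191-57901905 in span 5, where the fold was 12.0 in the C-terminal and 14.9 in the N-terminal list. The second was chr19:57874566-57875516, with 10.7 and 10.8, and the third chr19:56825505-56826849, with 8.0 and 8.99, both also in span 5. In span 4 the highest was chr19:53400203-53401551, with 7.44 and 8.13. In span 2 only chr19:36705058-36706193 had both antibodies, with 6.99 and 8.11. It lay close to the span's proximal edge. Its summits held 61 C-terminal and 115 N-terminal fragments. The first-ranked region held 17 and 26, at a background near the lowest of each list, so rank by fold was not rank by fragments. In span 3 only chr19:44808556-44809237 had both, with 13.5 and 6.21. Of the 10 strongest shared regions, 6 lay in span 5. Of the 10, those not yet named were chr19:52642547-52643489 in span 4 (7.06 and 7.24) and further regions of span 5. The latter were chr19:57862560-57863524 (7.09 and 12.7), chr19:58897234-58898949 (5.80 and 7.53) and chr19:58837961-58838753 (5.64 and 6.50).

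The highest single fold of the clusters came from a region with 1 antibody. It was a C-terminal peak at chr19:58331069-58331705 in span 5, with a fold of 17.4 and no N-terminal peak. Its summit held 25 fragments, at a background near the lowest of the list. The other two regions with the C-terminal antibody alone, named after their values were seen, were chr19:56651658-56652135 and chr19:56746572-56748385 in span 5, with folds of 8.12 and 8.80. The highest N-terminal peak in span 3, chr19:44617539-44618180 with a fold of 9.23, had no C-terminal peak. Among N-terminal peaks the 19 shared ones were wider and of higher fold than the 26 single ones, with medians of 945 against 638 bp and of 6.21 against 4.28-fold, but had fewer summit fragments, 41 against 46. Among C-terminal peaks the 3 single ones had a median fold of 8.80 against 5.64 for the 19 shared ones, but only 12 fragments at the summit against 25.

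Peak widths and folds in the clusters were close to those of the rest of the chromosome. C-terminal peaks had a median width of 682 bp against 766 in the rest, and N-terminal peaks 759 against 827. Their median folds were 6.40 against 5.75 and 5.15 against 5.88, so the antibodies moved in opposite directions. The widest members were 2034 bp in the C-terminal and 2281 bp in the N-terminal list, against 6783 and 9964 bp in the rest of the chromosome. Together the members covered 19.1 kb in the C-terminal and 40.2 kb in the N-terminal list.

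H1 peaks of the clusters were wider than those of the rest of the chromosome in 4 of 4 libraries. In the wild-type libraries the medians were 469 against 396.5 bp and 385 against 350 bp. In the depleted ones they were 445 against 392 bp and 338 against 270 bp. The mean difference was 57.1 bp (exact two-sided sign-flip permutation test, p = 0.125, the smallest possible with 4 libraries, adjusted p = 0.281 over 9 tests). It was 11.9 bp when all H1 lists were cut to the 1480 peaks of highest fold. Median folds were also higher in 4 of 4 libraries, at 6.82 against 6.26, 6.38 against 6.09, 6.50 against 6.30 and 6.63 against 6.45. The mean difference was 0.31 (exact sign-flip permutation test, p = 0.125), and it was -0.057 without span 5.

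**Figure D3:**
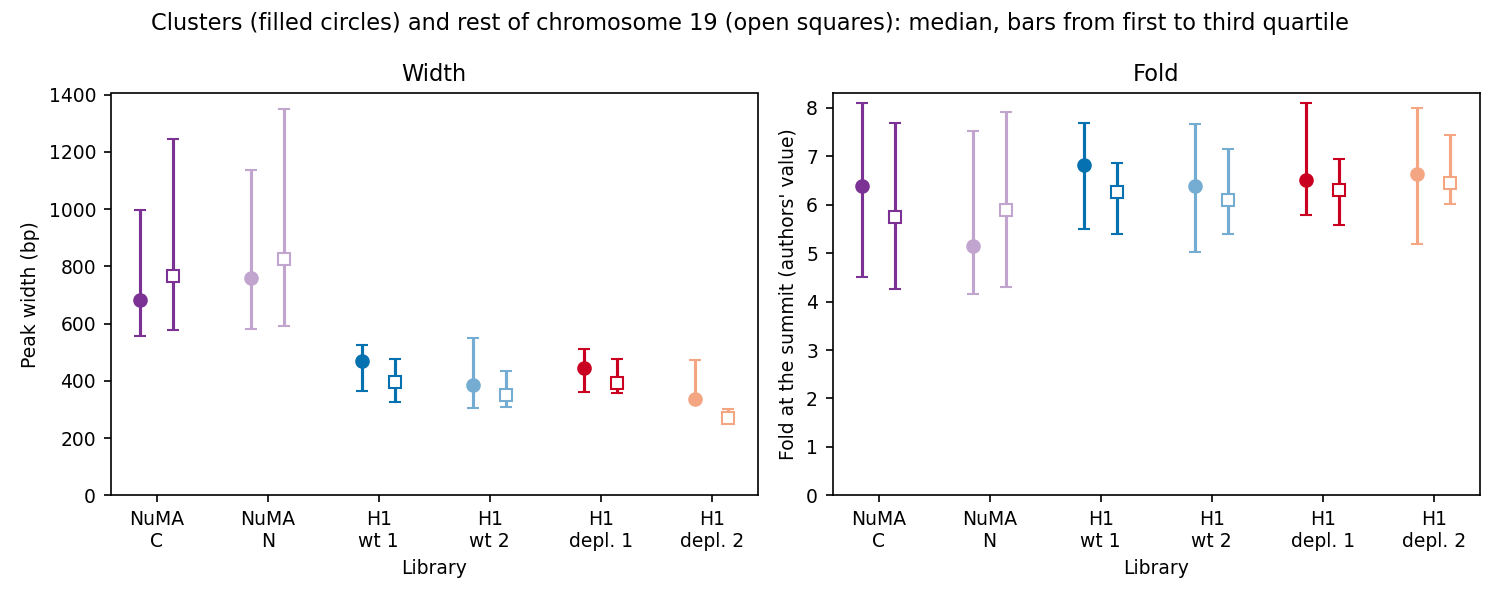
Median width in bp (left) and median fold (right, the authors' value) of the peaks in the zinc-finger spans (filled circles) and in the rest of chromosome 19 (open squares) for each of the 6 lists, with bars from the first to the third quartile. The cluster median of width is higher in all 4 H1 lists and lower in both NuMA lists, and the quartile ranges overlap except for the widths of depleted replicate 2.

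The depleted libraries had fewer H1 peaks in the clusters than the wild-type ones, but lay far apart. Wild-type libraries had 31 and 32 member peaks (31.5 ± 0.707, SD, n = 2) and depleted libraries 25 and 6 (15.5 ± 13.4, SD, n = 2). The groups did not overlap, and the log2 ratio of means was -1.02 (exact two-sided permutation test, p = 0.333, the smallest that 2 against 2 allows). Nor did they in the whole lists, with 4552 and 5553 wild-type against 2616 and 1480 depleted peaks. The clusters held 0.681% and 0.576% of all wild-type and 0.956% and 0.405% of all depleted H1 peaks. With each H1 list cut to its 1480 peaks of highest fold, the log2 ratio was -0.064 (exact permutation test, p = 1). The rest of the chromosome had 139.5 ± 21.9 wild-type and 53 ± 25.5 depleted peaks (SD, n = 2 each), a 2.63-fold ratio of means against 2.03-fold in the clusters. Of the chromosome's H1 peaks, 18.6% ± 2.04 (SD, n = 2) of the wild-type and 20.3% ± 8.07 (SD, n = 2) of the depleted ones lay in the clusters (exact permutation test, p = 1). The depleted values of 26.0% and 14.6% lay on either side of both wild-type values. The recovered depth of the depleted libraries was 58.6% and 58.5% of wild-type replicate 1, each group having a depth of its own. The parts of depth and depletion in the lower counts cannot be told apart. The depleted libraries had 25 and 6 member peaks at like depth, and the log2 ratio was -0.33 when replicate 2 of them was left out and -2.39 when replicate 1 was.

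Merged over the 4 lists, the H1 peaks formed 53 regions in the clusters, 4 in span 1, 13 in span 2, 4 in span 3, 8 in span 4 and 24 in span 5. Of these, 27 were called in 1 list only. A wild-type list called 45 and a depleted list 26, with 18 called in both groups, 27 in wild-type only and 8 in depleted only. Per list, 51.6% and 40.6% of the wild-type members were called in a depleted list, against 41.8% and 35.0% over all chromosomes. Of the depleted members, 72% and 66.7% were called in a wild-type list, against 72.9% and 78.8%. Each of these 4 exact binomial intervals held the share over all chromosomes. Of the 24 regions of span 5, 12 had a depleted call, and so did 8 of the 13 of span 2.

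Regions that both wild-type lists held were called again after depletion about as often as elsewhere. Of 18 such regions in the clusters, 11 were called in at least 1 depleted list (61.1%, exact binomial 95% interval 35.7 to 82.7). The share was 50% of 64 in the rest of the chromosome and 59.8% over all chromosomes. Both depleted lists called 4 of the 18 (22.2%), against 10.9% in the rest and 23.9% over all chromosomes. The shares in the clusters were thus near the background. Depleted replicate 1 called all 11 and replicate 2 called 4, so the share was 22.2% without depleted replicate 1. Replicates 1 and 2 called 40.6% and 20.3% of such regions in the rest and 50.5% and 33.1% over all chromosomes. Replicate 2 thus called fewer outside the clusters as well. Span 2 had 6 of 8 regions called again and span 5 had 2 of 6. A NuMA peak of either antibody lay at 5 of the 18 (27.8%), against 62.5% in the rest and 34.0% over all chromosomes.

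The 11 regions called again had a median of 20 summit fragments in wild-type replicate 1 and 21 in replicate 2, and the 7 regions that were not called had 25 and 25. Their maxima were 90 and 123 fragments, against 40 and 60. Median folds were 6.81 and 6.54 for the former and 7.30 and 6.04 for the latter, so the order differed between the lists. The former were wider, with medians of 556 and 577 bp against 472 and 429 bp. These values are descriptions over few regions and carry no test.

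The 4 regions called in all 4 H1 lists lay in spans 2 and 4. The highest was chr19:37708721-37709273 in span 2, with folds of 9.29, 11.0, 8.81 and 8.20 in wild-type replicates 1 and 2 and depleted replicates 1 and 2, and no NuMA peak. The second was chr19:52692875-52693656 in span 4, with 6.74, 6.65, 6.63 and 5.87. It also carried NuMA peaks of both antibodies, with folds of 3.32 and 5.15. The other two, chr19:37771901-37772496 and chr19:36785496-36786205 in span 2, had folds of 4.52 to 4.99 and 3.35 to 3.88. Folds of different lists are not compared as signal, since each is relative to its own background.

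Most H1 members on a raised local background lay in span 2. Member H1 peaks whose recovered background was at least 3 times the lowest of their list numbered 5, 7, 4 and 2 in the 4 libraries, and 4, 6, 4 and 2 of them were in span 2. They made up 16.1%, 21.9%, 16% and 33.3% of the members, against 17.5%, 25%, 25.5% and 27.2% over all chromosomes. The clusters as a whole were thus near the background of all chromosomes. In the rest of chromosome 19 the shares were 4.84%, 18.7%, 19.7% and 8.57%. In the NuMA lists, 14 of 22 C-terminal (63.6%) and 37 of 45 N-terminal members (82.2%) were of this kind, with 1 and 5 of them in span 2. The NuMA shares were 79.4% and 90.4% in the rest and 72.8% and 91.0% over all chromosomes, so raised background was no trait of the clusters. The folds of these H1 members were 2.31 to 6.45, and their background reached 21.3 to 36.5 times the lowest in the wild-type and 19.95 to 30.6 times in the depleted lists. The regions chr19:37771901-37772496 and chr19:36785496-36786205 were among them, so 2 of the 4 regions called in all lists rested on locally raised fragment counts in every library. What raised the local counts there, such as copy number or repeats, was not tested.

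Regions that both wild-type lists held and no depleted list called numbered 7, and 4 of them lay in span 5. The 5 highest by fold included chr19:58427786-58428232, with folds of 8.39 and 8.64 in the wild-type replicates, and chr19:58258038-58258591, with 8.15 and 9.35. Next were chr19:57831509-57832207, with 8.42 and 7.35 and an N-terminal NuMA peak of 4.33, and chr19:21324725-21325093 in span 1, with 7.30 and 6.04. The fifth was chr19:58873866-58874345, with 4.64 and 5.81 and NuMA peaks of both antibodies at 4.20 and 5.0. The remaining pair of the 7, named after their values were seen, lay in span 2 at chr19:36798224-36799191 and chr19:37765648-37766373, with wild-type folds of 2.69 to 3.55. Only chr19:58144425-58144759 was called in both depleted lists and in no wild-type list, with folds of 7.74 and 10.5 and no NuMA peak. It was the highest fold among the 6 members of depleted replicate 2.

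**Figure D4:**
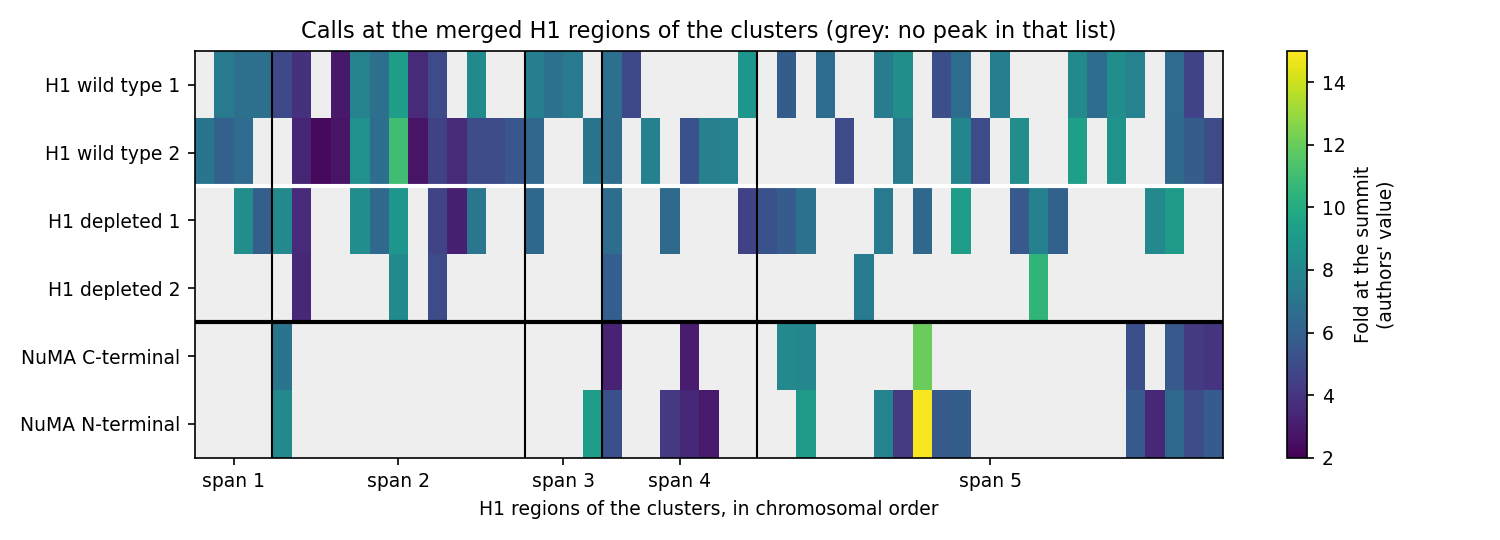
The 53 merged H1 regions of the zinc-finger spans in chromosomal order (columns), coloured by the authors' fold in each of the 4 H1 lists and, under the black line, the 2 NuMA lists; grey marks no peak in that list. Depleted replicate 2 has calls at 6 regions, 4 columns are filled in all 4 H1 rows, and NuMA calls stand in spans 4 and 5 and at 1 region each of spans 2 and 3.

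A smaller share of H1 peaks met a NuMA peak in the clusters than in the rest of the chromosome. An H1 peak overlapped a NuMA peak of either antibody in 32.3% and 28.1% of wild-type and 36.0% and 16.7% of depleted member peaks. The shares in the rest of the chromosome were 58.9%, 54.2%, 70.4% and 45.7%. The difference averaged -29.0 percentage points and was negative in 4 of 4 libraries (exact two-sided sign-flip permutation test, p = 0.125, the smallest possible, adjusted p = 0.281). It was -4.08 points when 50% reciprocal overlap was asked for, the smallest difference of all alternatives. With summits within 200 bp it was -21.7 and with sites of both antibodies -17.6. Leaving out a span gave -15.7 to -38.4. Over all chromosomes the shares were 31.7%, 24.9%, 36.6% and 29.5%, so the clusters lay near the genome's background and the rest of chromosome 19 above it. Between the groups, the cluster share of 30.2% ± 2.92 (SD, n = 2) in wild-type cells did not differ from the 26.3% ± 13.7 (SD, n = 2) after depletion beyond the spread (exact permutation test, p = 1). Depleted replicate 2 entered with 1 of 6 peaks.

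Seen from NuMA, the few cluster peaks often lay at H1 peaks. Of the C-terminal members, 10 of 22 overlapped an H1 peak of any list (45.5%, exact binomial 95% interval 24.4 to 67.8), against 4.57% in the rest of the chromosome and 9.02% over all chromosomes. Of the N-terminal members, 17 of 45 did (37.8%, 23.8 to 53.5), against 4.23% and 10.7%. For both antibodies the interval lay above the share in the rest and over all chromosomes, with 1 library each and no test over libraries. With wild-type H1 lists alone the shares were 36.4% and 28.9%, against 3.89% and 3.48% in the rest and 7.79% and 9.23% over all chromosomes. With depleted lists alone they were 22.7% and 20%, against 1.99% and 1.79% in the rest and 4.43% and 5.47% over all chromosomes. NuMA peaks were 24.9-fold and 16.03-fold sparser in the clusters while H1 peaks were not, and the part of these densities in the shares was not tested.

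Of the 48 NuMA regions, 18 carried an H1 peak, 9 of the 19 called with both antibodies and 9 of the 29 called with 1. Of the 53 H1 regions, 18 carried a NuMA peak, 12 of them in span 5 and 1 in span 2. In span 2, none of the 8 regions of both wild-type lists met a NuMA peak, against 4 of 6 in span 5. The 9 regions with both antibodies and H1 were led by chr19:57901191-57901905, where depleted replicate 1 alone had an H1 peak, of fold 6.37. The same held at chr19:56825505-56826849, where that library had a fold of 6.90 and the other 3 had no peak. At chr19:36705058-36706193 wild-type replicate 1 had 4.88 and depleted replicate 1 had 8.12. At chr19:58837961-58838753 both wild-type libraries and depleted replicate 1 had a peak, with 6.57, 6.48 and 9.07. Wild-type H1 alone was called at chr19:58789944-58790900 (7.76 in replicate 1), at chr19:58872995-58875028 (4.64 and 5.81), at chr19:58891493-58892703 (5.02 in replicate 2) and at chr19:53425986-53427022 (5.25 in replicate 2). The region chr19:52692969-52693962, described above, was the only one of the 9 with H1 in all 4 lists.

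**Figure D5:**
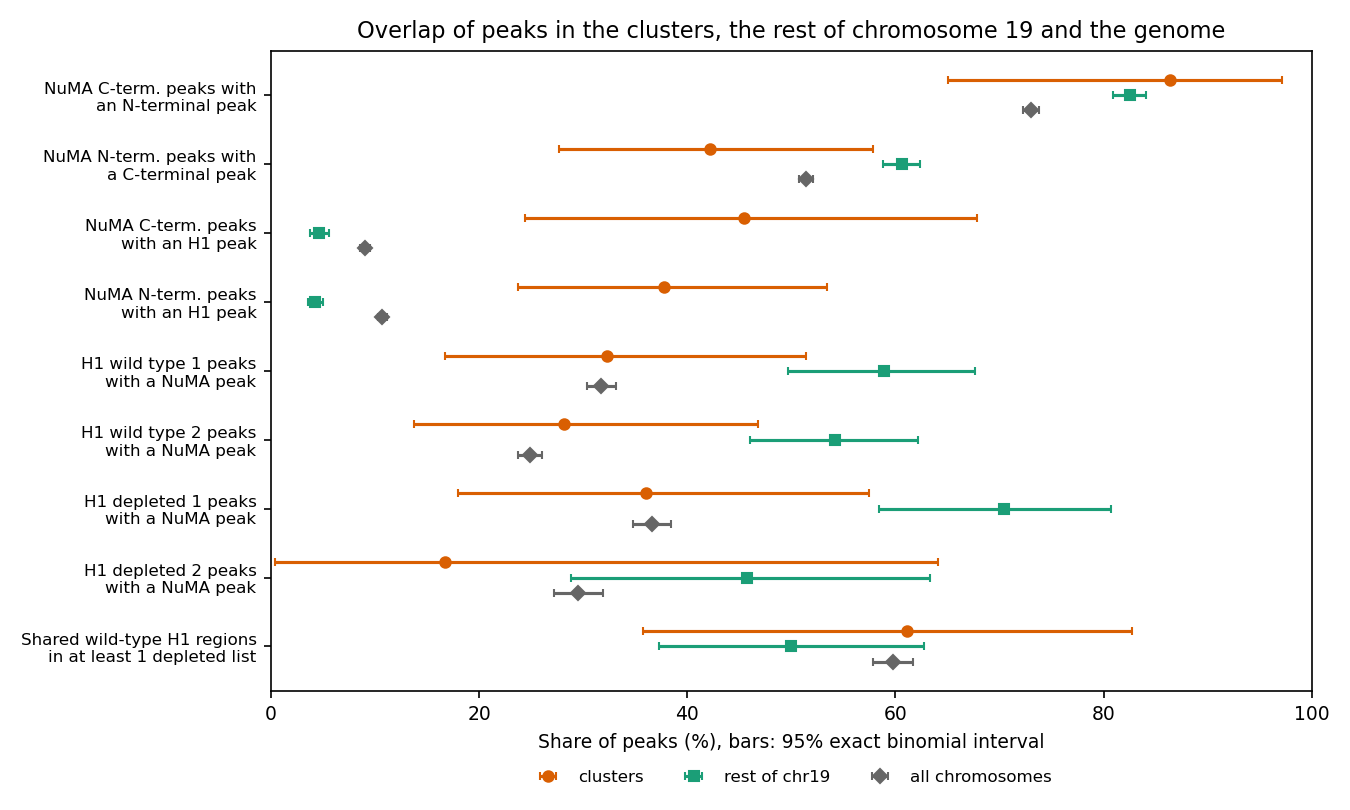
Share of peaks, in percent, that overlap a peak of another list in the zinc-finger spans (circles), the rest of chromosome 19 (squares) and all chromosomes (diamonds), with 95% exact binomial intervals that cover counting error only. NuMA peaks of the clusters meet an H1 peak in 45.5% and 37.8% of cases against 4.57% and 4.23% in the rest, and H1 peaks of the clusters meet a NuMA peak less often than in the rest in all 4 libraries.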

How the data were processed

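Peak lists of 6 CUT&Tag libraries of HCT116 were analysed. The tools named in the submitters' processing notes are MACS2, Bowtie2, Picard and Trim Galore, and the build is hg19. Their versions and settings were not stated there. Per the file headers, that is the peak names, peaks were called per library at a q-value limit of 0.001. The deposited lists give a fold (a ratio of fragments to local background), a −log10 p, a −log10 q and a score for each peak, all the authors' values. The authors' score was not used, and the lists gave no read counts. The names of the NuMA peaks say ChIP-seq and the labels say CUT&Tag, which was followed.

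The members, spans and lists were chosen with earlier results of these data known. The comparison length ran from the first to the last peak of chromosome 19, without the spans and without the longest stretch that had no peak. Lists were compared by overlap of at least 1 bp, H1 regions of both wild-type lists were counted on replicate 1, and coordinates are 1-based. Intervals are exact Poisson or exact binomial at 95%, or conditional on the total for ratios. H1 libraries were compared by exact two-sided permutation or sign-flip tests, 9 in all, with Benjamini-Hochberg adjustment. Fragments and background at a summit were solved from its fold and −log10 p. This gave a solution for 14230 of 14240 and 19518 of 19518 NuMA peaks and 4535 of 4552, 5539 of 5553, 2607 of 2616 and 1472 of 1480 H1 peaks, and the solved counts were whole within 0.01. The named regions were the highest NuMA peak of each span, the 10 strongest regions of both antibodies, the H1 regions of all 4 lists, those of 1 group only (the 5 highest for wild type) and those with H1 and both antibodies. The recovery and tests were tested on simulated data. Alternatives were another q limit, other span edges, each span or library left out, other overlap rules and lists of equal length. Software was Python 3.11.15 with matplotlib 3.10.9, pandas 2.3.3, scipy 1.17.1 and numpy 2.4.6. No sequences of the peaks are shown, since no hg19 genome was used here.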

Additional observations from a re-analysis of the deposited data

How the results depend on the processing

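Over 211 alternatives, 185 left the direction, or the value's place in its interval, as it was. Another 8 moved a value and 18 turned a sign. The threshold was p = 0.05, and the smallest p that any permutation or sign-flip test here allowed was 0.0667. No test could therefore pass the threshold in any setting, and keeping its side says nothing about stability. The lower NuMA density kept its direction in every alternative run. Its log2 ratio was -3.56 (C-terminal) and -3.35 (N-terminal) with spans widened by 0.1 Mb, -3.87 and -3.30 without span 1, and -5.94 and -4.68 without span 5. C-terminal agreement was 100% without span 5. N-terminal agreement ran from 31.8% without span 5 to 56.4% with spans widened by 0.1 Mb. The H1 log2 ratio turned to 0.00097 at a −log10 q of at least 5, 0.13 with widened spans, 0.60 without span 1 and 0.34 with equal lists. It was 0.029 with the stretch without peaks counted, an alternative chosen after seeing the data. Leaving out 1 library gave -0.264 to 0.082.

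The depleted minus wild-type share of H1 peaks at NuMA peaks turned to 0.24 points (−log10 q of at least 5), 0.25 (spans narrowed), 10.3 (widened), 8.57 (without span 5), 9.92 (equal lists) and 2.46 (sites of both antibodies), and ranged from -13.5 to 5.81 points with 1 library left out. The depleted minus wild-type share of the chromosome's H1 peaks in the clusters was -2.41 points with equal lists and from -3.92 to 7.49 points with 1 library left out. The fold difference was -0.057 without span 5. The width difference between groups ranged from -89 to 18 bp, and the regions called again from 22.2% to 61.1% with 1 library left out. The comparisons of the NuMA with the H1 libraries and of H1 shares at NuMA peaks with the rest of the chromosome were added after the data were seen.

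Shared replicate numbers were not shown to pair the H1 libraries (r = -0.05 over 2326 windows of 1 Mb). With the number as a block, the log2 ratio of cluster H1 peaks was -1.36 (exact sign-flip p = 0.5, the smallest possible), so no call could change. The log2 ratio was -0.064 (exact p = 1) with H1 lists of equal length. Shares in depleted replicate 2 rest on 6 members, and 2 libraries a group allow no p under 0.333.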
